A study of Homo sapiens with 12 samples.

Results

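The genes described here lie in 1 stretch of human chromosome 14, and the stretch was chosen by their RNA levels, which were higher in cells targeted for ATG7 than in their parent cells. Every gene that starts from base 20256558 to base 50668331 (GRCh38) was taken. They are 714 of the 58735 genes of the deposited table, and 1516 further genes lie on the rest of chromosome 14. RNA was sequenced from HLE-B3, an immortalised human lens epithelial line, as WT cells and as Atg7KO cells, in which ATG7, an enzyme of the autophagy conjugation system, was targeted with CRISPR/Cas9. Each line was taken untreated (0h) or after 12h with 200 μM H2O2, with 3 libraries per group, 12 in all. All cells share the HLE-B3 background. The knockout lines were grown from picked single clones, and the labels do not say which clone was sequenced, so a difference of the knockout and a difference of the clone cannot be told apart. The effect of H2O2 and that of 12h in culture cannot be told apart either, since no untreated 12h group was analysed here.

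Chromosome 14 is acrocentric, which means that its short arm holds almost no protein-coding genes and that its gene-bearing long arm begins near the centromere, where the stretch lies. A run of neighbouring genes that differ together in RNA level is a regional pattern, in contrast to a pathway, whose genes are scattered over the genome. Among the members are the T cell receptor alpha and delta genes, the proteasome activator pair PSME1 and PSME2, the NF-kB inhibitor NFKBIA and MMP14, a membrane-bound protease of the cell surface that cuts matrix proteins.

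Promoters are shown for 4 members that stand for the patterns described: NFKBIA, whose difference between the lines changed sign with H2O2, METTL3, which was lower in Atg7KO after H2O2, PSME2, from a neighbouring pair that was higher at both times, and MMP14, the member with the most reads. Each window is 300 bases, 250 before and 50 from the start of transcription, from RefSeq on GRCh38.p14, printed along the gene. Capitals mark matches on either strand to an NF-kB motif (GGG, any pair of bases, TTTCC), an interferon response motif (GAAA, any pair of bases, GAAA), the core of the antioxidant response element (TGACNNNGC) or the TATA box (TATAAA).
NFKBIA promoter, chr14:35404700-35404999, strand -: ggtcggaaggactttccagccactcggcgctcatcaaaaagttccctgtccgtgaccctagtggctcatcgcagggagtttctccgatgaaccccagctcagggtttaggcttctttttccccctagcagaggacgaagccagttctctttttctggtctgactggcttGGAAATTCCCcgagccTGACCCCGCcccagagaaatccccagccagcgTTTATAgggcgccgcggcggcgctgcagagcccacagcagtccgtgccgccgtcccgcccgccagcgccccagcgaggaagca
METTL3 promoter, chr14:21511291-21511590, strand -: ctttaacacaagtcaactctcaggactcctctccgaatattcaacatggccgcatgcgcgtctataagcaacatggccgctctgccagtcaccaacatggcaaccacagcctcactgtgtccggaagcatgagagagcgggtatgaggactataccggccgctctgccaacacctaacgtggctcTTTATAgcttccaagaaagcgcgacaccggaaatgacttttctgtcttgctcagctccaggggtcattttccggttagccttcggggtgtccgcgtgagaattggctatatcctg
PSME2 promoter, chr14:24146561-24146860, strand -: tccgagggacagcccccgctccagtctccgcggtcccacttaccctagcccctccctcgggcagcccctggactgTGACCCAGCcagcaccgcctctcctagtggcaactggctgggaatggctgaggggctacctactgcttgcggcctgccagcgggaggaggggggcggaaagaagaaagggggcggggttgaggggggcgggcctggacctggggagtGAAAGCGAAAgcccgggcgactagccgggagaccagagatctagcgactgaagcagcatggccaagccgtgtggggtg
MMP14 promoter, chr14:22836335-22836634, strand +: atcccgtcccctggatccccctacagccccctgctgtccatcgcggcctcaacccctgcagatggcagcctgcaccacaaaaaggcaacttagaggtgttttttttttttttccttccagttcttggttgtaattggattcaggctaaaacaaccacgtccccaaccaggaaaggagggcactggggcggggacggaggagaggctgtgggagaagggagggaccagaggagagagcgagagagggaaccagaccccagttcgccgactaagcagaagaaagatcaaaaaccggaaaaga
In the NFKBIA window the NF-kB motif was matched on the opposite strand at bases 170 to 179 of the window, and 523 of 27305 promoters of this length held the motif (1.92%), against 2 of 126 members (NFKBIA and LRFN5). The PSME2 window held the interferon response motif at bases 223 to 232, as did 3.65% of all promoters and 9 of the 126 members, among them PSME1 and RNF31. The gene models of PSME2 (bases 24143362 to 24147570) and RNF31 (bases 24146683 to 24160661) overlap, so 1 site may be counted for both. TGACNNNGC was found in 13.6% of all promoters and in 17 of the 126, and TATAAA in 12.0% and in 9, among them METTL3 and NFKBIA. In METTL3 and NFKBIA the TATAAA match is on the opposite strand (TTTATA), with its first base at -65 and -33 from the start of transcription. TGACGTCA, the cyclic AMP response motif, was found in 1.98% of all promoters and in 4 members, and none of the 5 motifs was matched in the MMP14 window. The 126 are those of 148 protein-coding members tested at 12h for which such a promoter was given. A match describes these letters alone, and no matches overlap in the windows shown.

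Library totals were between 15602183 and 17659496 counted reads. Untreated Atg7KO replicate 1 stood apart: its mean Pearson correlation across genes with its own group was 0.971, against 0.980 for its partners and 0.989 in the other groups, so results that rest on it are given with and without it. The partners' means of 0.980 include their correlation with replicate 1. ATG7 RNA was present in all libraries, at 2.21 to 2.81 FPKM (reads scaled by gene length and library size, as the authors give it) in untreated WT and 3.42 to 3.78 in untreated Atg7KO, and at 1.91 to 1.99 and 2.11 to 2.35 after H2O2, so its level does not check the labels, since a small edit need not lower the RNA. Of 11 lens epithelial markers, CDH2 (97.9 to 184 FPKM) and SIX3 had a median above 1 FPKM, while SOX2 had no read and FOXE3 and CRYAA had at most 3, so the labelled lens identity rests on few markers here. The summed level of 8 fibroblast markers was 978 to 991 FPKM in untreated WT and 758 to 764 in untreated Atg7KO, and 585 to 609 and 453 to 463 after H2O2. COL1A1 and VIM carried most of this sum, with medians over all libraries of 311 and 295 FPKM, while COL3A1 and DCN had at most 0.068 and 0.0094. The part of this sum in the results below was not tested.

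Of the 714 members, 320 had no read in any library and 214 are protein-coding. A member was tested where its counts passed a filter on low values, which left 165 members at 0h and 170 at 12h, 157 of them at both. None of the 48 variable and 60 joining segments of the T cell receptor was tested, each having at most 1 read in any library, and the same held for 12 miRNA genes. The members that passed are therefore those these cells express, and a member expressed in 1 line alone had to differ to be tested.

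Members of the stretch were higher in Atg7KO than in WT at both times. The median log2 fold change over the 165 members at 0h was 0.74 (1.67-fold), with quartiles of 0.37 and 1.02, and it was 0.72 without Atg7KO replicate 1. After 12h of H2O2 the median over 170 members was 0.57 (1.48-fold), with quartiles of 0.24 and 0.83. The rest of chromosome 14 had medians of 0.045 over 318 genes and 0.13 over 331, and the other chromosomes had -0.0011 and -0.0096. Above 0 were 150 of 165 members at 0h and 139 of 170 at 12h, beside 50.5% and 49.8% of all tested genes. These differences chose the stretch, so they and the counts below that set Atg7KO against WT are a description, with no test, and nothing is read from them. In bulk RNA, fewer cells with a transcript and less of it per cell cannot be told apart.

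The difference was present in each library. The median over the 157 members, against the WT mean of the same time, was 0.77, 0.70 and 0.75 in the untreated Atg7KO libraries and 0.62, 0.60 and 0.57 in the treated ones, on the log2 scale. In the WT libraries, each set against the mean of its WT partners of the same time, it lay between -0.032 and 0.030. No Atg7KO library overlapped with WT. Reads on the stretch made up 0.622%, 0.626% and 0.624% of all counted reads in untreated WT, and 1.11%, 1.02% and 1.02% in untreated Atg7KO. After H2O2 the shares were 0.703%, 0.701% and 0.709% in WT and 1.04%, 1.03% and 1.03% in Atg7KO. The ratio of the Atg7KO to the WT mean was 1.68 at 0h and 1.47 at 12h.

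Members whose 3 Atg7KO values all lay above the 3 WT values numbered 119 of 165 at 0h (22.4% of all genes) and 118 of 170 at 12h (34.7%), and 7 and 17 lay wholly below (22.9% and 33.4%).

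The height of the difference was not even along the chromosome. TTC5, a cofactor of p53, opens the stretch, with 1.06, 1.1 and 0.94 FPKM in untreated WT and 1.33, 1.18 and 1.23 in untreated Atg7KO, and with 0.826, 0.817 and 1.02 against 1.2, 1.34 and 1.21 after H2O2. Its groups did not overlap at either time, and its log2 differences were 0.26 and 0.48. The nearest tested gene before it, the pseudogene DUXAP10, had 0.074 and 0.11. From TTC5 to SALL2, the 21 members before the T cell receptor genes had medians of 0.25 at 0h and 0.25 at 12h, with 17 of 21 above 0 at 0h. From DAD1 on, the 136 members after the T cell receptor genes had medians of 0.80 and 0.64, with 129 and 120 above 0. This split was made after the values were seen.

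The last protein-coding member is SAV1, a scaffold of the Hippo pathway, which had 8.5, 8.66 and 8.94 FPKM in untreated WT, 13.4, 12.8 and 14.2 in untreated Atg7KO, 11.4, 12 and 11.4 in treated WT and 19.4, 18.1 and 18.8 in treated Atg7KO. Its log2 differences were 0.63 and 0.69, and its groups were apart at both times. The last tested member is AL606834.1, a transcript within an intron, with differences of 0.14 at 0h, where its groups overlapped, and 1.06 at 12h, where they did not. NIN, which encodes the centrosome protein ninein and is the nearest tested gene outside the end, had 0.67 and 1.39. The higher values went on beyond the stretch: the next 24 tested genes, NIN to GMFB (bases 50719763 to 54489196), had medians of 0.43 and 0.65. The 24 after them, CGRRF1 to ARID4A, had -0.060 and 0.021. Farther along, a second group of genes had raised medians, with 0.38 and 0.36 over the 24 from MPP5 to COX16. The 24 from SYNJ2BP to ACOT2 had 0.49 and 0.44. The next 24, DNAL1 to EIF2B2, had 0.12 and 0.31, with 21 above 0 at 0h and 17 at 12h. MLH3 to ALKBH1 had -0.041 and 0.035, and SLIRP to RPS6KA5 had -0.037 and 0.15. From DGLUCY to the end of the chromosome the 4 groups of 23 had medians between -0.16 and 0.19.

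The difference was seen on both strands and at all levels of expression. At 0h it had a median of 0.79 over 74 members on the plus strand and 0.65 over 91 on the minus strand, and at 12h of 0.55 and 0.60. By level, the 44 members above 10 FPKM had medians of 0.90 and 0.63, with all 44 above 0 at 0h and 37 at 12h, the 82 members of 1 to 10 FPKM had 0.62 and 0.51, and those up to 1 FPKM had 0.78 and 0.62. Gene length moved with the values, in opposite ways at each time: short members (up to 3301 bases) had 0.90 at 0h and 0.48 at 12h, and long members (above 6111 bases) had 0.65 and 0.72. On the other chromosomes short genes had 0.15 and -0.17 and long genes -0.12 and 0.14. With a correction for length the short members had 0.76 and 0.61 and the long ones 0.80 and 0.63. The part of gene length in the values of single members was not tested.

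Across the 157 members, the log2 differences at 0h and at 12h, which share no library, had a Pearson r of 0.47 and a Spearman rho of 0.24, as a description over neighbouring genes that are not independent. For the 14251 genes of other chromosomes the same values were 0.52 and 0.22. A total of 130 members was above 0 at both times, 9 were below 0 at both, 16 were above 0 at 0h alone and 2 at 12h alone.

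Among matrix and cytoskeleton genes, MMP14 (bases 22836557 to 22849027) carried the most reads of all members. It had 57.8, 62.2 and 58.3 FPKM in untreated WT and 185, 179 and 169 in untreated Atg7KO, and 129.50, 134 and 132 in treated WT and 335, 338 and 339 in treated Atg7KO. The 4 groups lay apart, WT 0h lowest and Atg7KO 12h highest, and the Atg7KO to WT differences were 1.57 and 1.35 on the log2 scale (2.98- and 2.55-fold). ARHGAP5, a GTPase activating protein, had 4.94, 4.06 and 4.66 FPKM in untreated WT and 4.22, 10.2 and 9.48 in untreated Atg7KO, where replicate 1 lay among the WT values, and 4.73, 5.09 and 4.99 against 12, 11.8 and 11.6 after H2O2, with groups apart. RALGAPA1, which inactivates Ral GTPases, had 1.69, 3.8 and 4.13 FPKM in untreated Atg7KO against 2.88, 2.4 and 2.59 in WT, and 4.42, 4.39 and 4.41 against 1.75, 1.71 and 1.8 after H2O2, so that untreated replicate 1 lay below WT and the other Atg7KO libraries above it. Without that replicate the differences at 0h were 1.12 in place of 0.81 for ARHGAP5 and 0.60 in place of 0.29 for RALGAPA1. All 9 tested genes of this list were above 0 at both times, with medians of 0.68 and 0.86.

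In the proteasome and ubiquitin group, all 11 tested members of 12 were higher on average in Atg7KO at both times, with medians of 0.96 at 0h and 0.69 at 12h. PSME1 and PSME2 encode the subunits of the interferon-inducible proteasome activator. PSME2 (bases 24143362 to 24147570) had 13.1, 13.5 and 13.8 FPKM in untreated WT and 50.3, 28.6 and 29.2 in untreated Atg7KO. After H2O2 it had 17.9, 19.1 and 18.9 in WT and 29.5, 30.4 and 30.5 in Atg7KO, so the lines were apart at both times while Atg7KO replicate 1 stood far above its partners at 0h. Its log2 differences were 1.42 (1.11 without that replicate) and 0.69. PSME1 had 34.9, 34.8 and 39.8 against 115, 61.9 and 63.5 FPKM at 0h and 33.3, 32.5 and 33.1 against 50.7, 53.1 and 52.2 at 12h, again with replicate 1 highest and no overlap. PSMB5, the chymotrypsin-like catalytic subunit of the proteasome, had log2 differences of 1.33 and 0.50. NEDD8, a ubiquitin-like modifier of cullins, had 1.55 (1.11 without Atg7KO replicate 1) and 0.40.

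Of the genes of NF-kB signalling and cell death, 6 were tested of 8, all above 0 at 0h and 4 at 12h, with medians of 0.90 and 0.60. BCL2L2, an anti-apoptotic relative of BCL2, had 5.11, 5.48 and 4.85 FPKM in untreated WT and 10.8, 10.2 and 11.5 in untreated Atg7KO, and 6.74, 6.67 and 6.62 against 12.6, 11.9 and 11.5 after H2O2. Its groups were apart at both times, at log2 differences of 1.07 and 0.84. DAD1, a subunit of the oligosaccharyltransferase, had 91.3, 81.1 and 88.6 FPKM in untreated WT, 251, 158 and 147 in untreated Atg7KO, 111, 112 and 110.30 in treated WT and 159, 159 and 159.87 in treated Atg7KO, higher in Atg7KO at both times without overlap. NFKBIA differed from all of these and is taken up with the H2O2 response.

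In secretory traffic, 15 of 15 tested members were above 0 at 0h (median 0.90) and 14 of 15 at 12h (median 0.74). SEC23A, a coat protein of vesicles that leave the endoplasmic reticulum, had 23.2, 20.8 and 22.3 FPKM in untreated WT against 44.2, 44.1 and 44.4 in Atg7KO, and 15.2, 14.9 and 15.8 against 29.98, 30.5 and 29.3 after H2O2. The lines were apart by almost the same factor both times, 2-fold and 1.94-fold. ARF6, a small GTPase of endosomal recycling, had log2 differences of 0.98 and 0.58, and LRP10, a receptor of the endosomal system, had 0.82 and 1.22.

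The translation list had medians over 6 tested members of 1.25 at 0h, 0.84 without Atg7KO replicate 1, and 0.41 at 12h. Without that replicate the median at 0h was 0.86 for the proteasome list, 0.98 for secretory traffic, 0.80 for NF-kB and cell death, 0.67 for cytoskeleton and matrix, 0.75 for metabolism, 0.84 for genes of other tissues, 0.43 for RNA processing and 0.48 for DNA repair and replication. RPS29, a protein of the small ribosomal subunit, had 7.83, 8.07 and 9.17 FPKM in untreated WT and 44.7, 17.5 and 14.2 in untreated Atg7KO, with replicate 1 far above its partners. After H2O2 it had 16.4, 16.9 and 16.6 in WT and 15.4, 13.9 and 13.1 in Atg7KO, and the order of the lines was turned round with no overlap, the difference at 0h being 1.60, or 0.93 without replicate 1, and that at 12h -0.24. Its gene model overlaps its neighbour LRR1 on the other strand, and the strand setting of the counting is not given in the sources used here, so reads can be shared. RPL36AL, a ribosomal protein of the large subunit, had log2 differences of 1.44 and 0.27, MRPL52, of the mitochondrial ribosome, 1.68 and 0.28, and SRP54, the GTPase of the signal recognition particle, 0.67 and 0.54. Atg7KO replicate 1 was the highest untreated library for each gene named in this paragraph.

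The RNA processing list had medians of 0.47 at 0h, with 10 of 13 above 0, and 0.17 at 12h, with 7 of 13. HNRNPC, METTL3, TOX4 and CHD8 of this list lie before the T cell receptor genes. HNRNPC, a pre-mRNA binding protein, had log2 differences of 0.25 and -0.10, TOX4 had -0.085 and -0.052, and CHD8, a chromatin remodeller, -0.12 and 0.41. PABPN1, the nuclear poly(A) binding protein, lies after them, with 14, 15.8 and 12.5 FPKM in untreated WT and 37, 31.7 and 28.3 in untreated Atg7KO, and 16.8, 16.7 and 15.6 and 15.5, 15.6 and 14 after H2O2. Its lines were apart at 0h and overlapped at 12h. For DNA repair and replication, medians over 8 members were 0.59 and 0.50. TINF2, a shelterin protein of telomeres, had 0.90 and 0.76, POLE2, a subunit of DNA polymerase epsilon, had 0.85 and 0.79, and APEX1, the abasic site endonuclease, had 0.65 and -0.026.

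Of the metabolic genes, DHRS2, a short-chain dehydrogenase, had the largest log2 difference, at low counts, with 0.0304, 0.0504 and 0.0149 FPKM in untreated WT and 1.36, 0.698 and 0.936 in untreated Atg7KO. After H2O2 it had 0.14, 0.0688 and 0.169 and 1.66, 1.44 and 1.68, and the lines were apart at both times at a low level. OXA1L, a mitochondrial membrane insertase, had 0.76 and 0.79. EGLN3, an oxygen-sensing prolyl hydroxylase, went the other way, with log2 differences of -1.28 and -0.66 at levels under 1 FPKM. Of 22 genes that mark other tissues, 9 were tested at 0h and 10 at 12h, with medians of 0.75 at 0h and 0.42 at 12h. FOXA1, a pioneer factor of endoderm, had 1.21, 1.52 and 1.26 FPKM in untreated WT and 1.81, 2.64 and 2.66 in untreated Atg7KO. The lines did not overlap at either time, and the log2 differences were 0.83 at 0h and 0.56 after H2O2.

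A minority of members was lower in Atg7KO. COCH, which encodes the matrix protein cochlin, had 3.03, 2.51 and 3.11 FPKM in untreated WT and 1.37, 1.39 and 1.27 in untreated Atg7KO, and 2.27, 2.38 and 2.62 against 1.41, 1.22 and 1.37 after H2O2. SSTR1, a somatostatin receptor, had 12.3, 11.3 and 11.9 against 5.75, 7.93 and 7.31 at 0h and 5.77, 6.49 and 6.36 against 3.41, 3.86 and 3.68 at 12h. Both lay below WT at both times with no overlap, at log2 differences of -1.10 and -0.87 for COCH and -0.76 and -0.77 for SSTR1, in the midst of neighbours that were higher.

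The response to H2O2 in WT uses no Atg7KO library, and this contrast took no part in the choice of the stretch. Its WT libraries were the references of the differences that chose the stretch, so it is not fully independent of that choice. By the quasi-likelihood test of edgeR (adjusted p under 0.01 over all genes), 51 of 165 members tested rose and 40 fell, beside 30.9% and 30.1% of all genes called higher and lower, so the shares among members (30.9% and 24.2%) were near or below the background. The median log2 change was -0.032. The share of reads on the stretch was higher by 0.0804 percentage points (a ratio of 1.13) in treated than in untreated WT, with no overlap, and the exact two-sided permutation test gave p = 0.1, the smallest that 3 libraries against 3 allow. Without MMP14 the difference was 0.0495 points, and as a share of summed FPKM in place of counted reads it was 0.127 points.

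**Figure D1:**
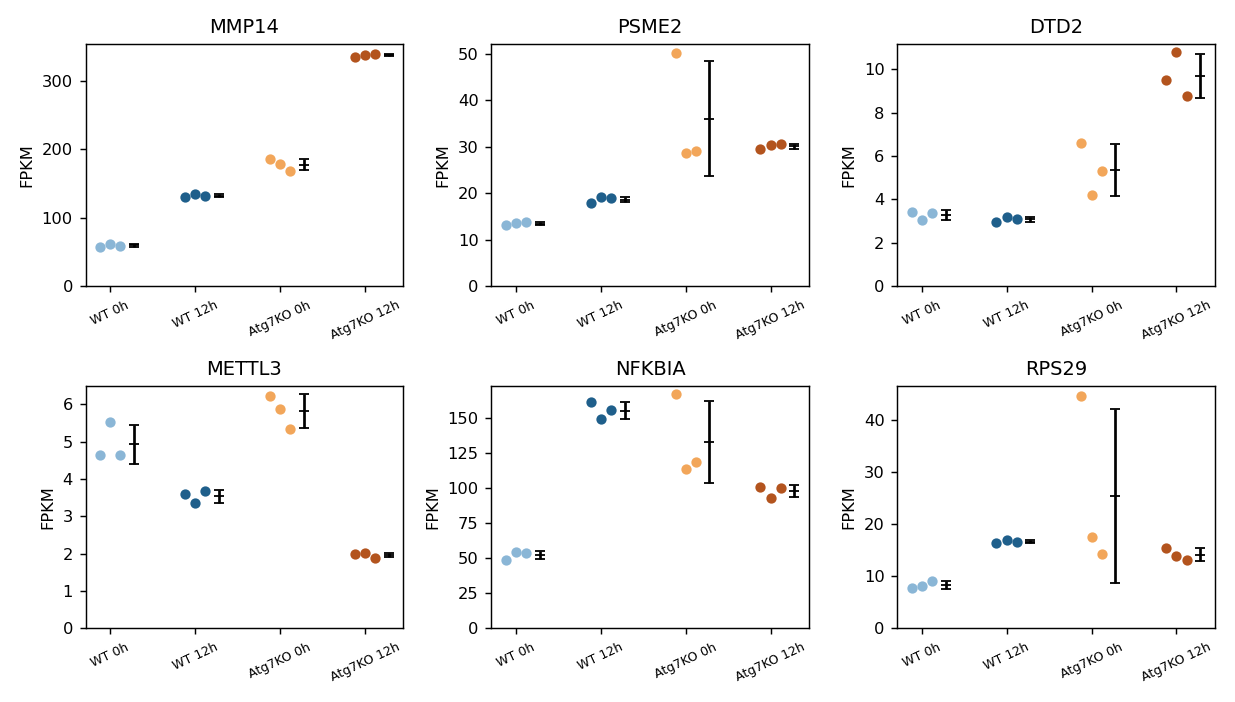
FPKM of 6 members in each library (points) with the mean ± SD of the 3 libraries of a group beside them, for WT and Atg7KO at 0h and 12h. MMP14 was higher in Atg7KO at both times, METTL3, NFKBIA and RPS29 were lower in Atg7KO at 12h and not at 0h, and Atg7KO replicate 1 stands above its partners for PSME2 and RPS29 at 0h.

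In WT cells, PNP, the purine nucleoside phosphorylase of purine salvage, rose from 4.91, 3.82 and 4.33 FPKM to 15, 16.5 and 16.8, a log2 change of 1.88 ± 0.075 (SE; adjusted p = 1.53e-26). NFKBIA, which holds NF-kB in the cytoplasm and is itself an NF-kB target, rose from 49, 54.1 and 53.6 to 161, 149 and 155, by 1.56 ± 0.047 (adjusted p = 1.98e-31). ABHD4, a lipase of N-acyl phospholipids, rose from 7.26, 7.05 and 6.42 to 17.5, 16.2 and 14.8, by 1.22 ± 0.068 (adjusted p = 5.67e-21). The treated libraries of all 3 genes lay above the untreated ones. MMP14 rose by 1.14 ± 0.043 (adjusted p = 8.53e-28) and ARF6 by 0.82 ± 0.046 (adjusted p = 7.33e-21). NFATC4, a calcium-regulated transcription factor, fell from 3.37, 3.39 and 2.73 to 1.2, 1.16 and 1.37 FPKM, a log2 change of -1.35 ± 0.10 (adjusted p = 4.18e-16). The kinase PRKD1 changed by -1.21 ± 0.13 (adjusted p = 1.24e-11), and its treated libraries all lay below the untreated ones.

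The same lists were counted for the response to H2O2, where 30.9% of all genes were called higher and 30.1% lower in WT, 13.6% and 12.4% in Atg7KO, and 29.8% and 28.6% in Atg7KO without untreated replicate 1. Of the proteasome and ubiquitin genes, 4 rose and 3 fell of 11 in WT, and 0 rose and 2 fell of 11 in Atg7KO (3 and 4 of 11 without that replicate). Of the NF-kB and cell death genes, 4 rose and 0 fell of 6 in WT, and 1 rose and 1 fell of 6 in Atg7KO (1 and 2 of 6 without that replicate). Of the DNA repair and replication genes, 2 rose and 5 fell of 8 in WT, and 0 rose and 1 fell of 8 in Atg7KO (1 and 5 of 8 without that replicate). Of the RNA processing genes, 5 rose and 4 fell of 13 in WT, and 0 rose and 2 fell of 13 in Atg7KO (3 and 6 of 13 without that replicate). Of the translation genes, 4 rose and 0 fell of 6 in WT, and 0 rose and 0 fell of 6 in Atg7KO (2 and 2 of 6 without that replicate). Of the secretory traffic genes, 5 rose and 3 fell of 15 in WT, and 1 rose and 2 fell of 15 in Atg7KO (7 and 4 of 15 without that replicate). Of the cytoskeleton and matrix genes, 2 rose and 4 fell of 9 in WT, and 2 rose and 3 fell of 9 in Atg7KO (5 and 3 of 9 without that replicate). Of the metabolism genes, 3 rose and 3 fell of 11 in WT, and 3 rose and 3 fell of 12 in Atg7KO (6 and 4 of 12 without that replicate). Of the other-tissue genes, 4 rose and 3 fell of 9 in WT, and 2 rose and 4 fell of 9 in Atg7KO (3 and 5 of 10 without that replicate). RNF31 and NEMF stand on 2 lists each.

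In Atg7KO cells, 20 members rose and 27 fell of 168, beside 13.6% and 12.4% of all genes, and the median was -0.11. Both Atg7KO groups entered the differences that chose the stretch. The calls and share tests in Atg7KO are therefore not fully independent of that choice. Without untreated replicate 1, 47 rose and 62 fell of 177, beside 29.8% and 28.6%. Without untreated replicates 2 and 3, 36 and 35 were called in all (17.6% and 16.9% of genes), and without any one of the treated replicates 1, 2 and 3 there were 22 (11.2%, 11.1% and 11.2%). With the thresholds of the study, 17 members were called in WT (12.5% of genes) and 21 in Atg7KO (11.2%). ABHD4 rose from 8.58, 11.3 and 10.6 FPKM to 25.5, 25.1 and 27.6, by 1.35 ± 0.13 (adjusted p = 0.000289), and PNP from 6.45, 5.49 and 4.96 to 13.9, 12.9 and 13.1, by 1.24 ± 0.11 (adjusted p = 0.000263). BAZ1A, a chromatin remodelling subunit, rose by 1.14 ± 0.089 (adjusted p = 0.000119), and in WT by 0.96 ± 0.049 (adjusted p = 2.29e-22). G2E3, a ubiquitin ligase, fell from 7.8, 7.68 and 7.48 to 1.97, 2.2 and 2.46 FPKM, a log2 change of -1.80 ± 0.11 (adjusted p = 4.46e-05). METTL3, the catalytic subunit of the RNA N6-methyladenosine writer, changed by -1.57 ± 0.10 (adjusted p = 5.87e-05) and DHRS1, a short-chain dehydrogenase, by -1.52 ± 0.16 (adjusted p = 0.000495), both lower in each treated library. These 6 genes kept their call in each of 16 alternative settings, among them that without untreated replicate 1. The share of reads on the stretch differed by -0.0174 points in Atg7KO (exact two-sided permutation test, p = 1), and the sign turned on the library that stands apart. Without untreated replicate 1 the difference was 0.0119 points with no overlap (exact two-sided permutation test, p = 0.2, the smallest that 3 libraries against 2 allow).

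Across 160 members tested in both lines, which share no library between the lines, the H2O2 responses had a Pearson r of 0.75 and a Spearman rho of 0.60. Over all genes these values were 0.70 and 0.56, and all are a description. Of the 160, 46 rose on average in both lines, 68 fell in both, 29 rose in WT alone and 17 in Atg7KO alone. How far the lines parted or came together with H2O2 is given as the Atg7KO to WT difference at 12h minus the one at 0h, from 1 fit over all 12 libraries. Both differences chose the stretch, so this change is a description, given with its SE and without a p, and whether a response differed between the lines was not tested. Its median was -0.14 over 181 members and -0.033 over all genes. Without untreated Atg7KO replicate 1 it was -0.098 over 185 members and -0.011 over all genes. The change moved with gene length: on the other chromosomes its median was -0.34 for short genes and 0.25 for long genes. With the correction for length these were -0.072 and -0.017. Short members had -0.43 and long members 0.032, or -0.15 and -0.20 with the correction. Of the 160 members, 9 moved in opposite directions in the 2 lines with no overlap in either. This was a smaller share than among all genes (7.54%). APEX1, MRPL52, PSMB5, NEDD8, PPP2R3C, NFKBIA and RPL36AL were higher in each treated WT library and lower in each treated Atg7KO library than in the untreated ones. RALGAPA1 and MIPOL1 went the other way round. Without untreated replicate 1, log2 changes in Atg7KO were -0.13 for APEX1 (-0.42 with it), -0.23 for MRPL52 (-0.62) and -0.20 for PSMB5 (-0.53). They were -0.15 for NEDD8 (-0.59), -0.24 for PPP2R3C (-0.44), -0.25 for NFKBIA (-0.44) and -0.23 for RPL36AL (-0.67). For RALGAPA1 the value was 0.14 (0.45) and for MIPOL1 0.21 (0.22).

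The Atg7KO to WT difference of NFKBIA changed sign between the times. NFKBIA had 49, 54.1 and 53.6 FPKM in untreated WT and 166, 113 and 118 in untreated Atg7KO, and 161, 149 and 155 in treated WT and 92.9 to 101 in treated Atg7KO. Untreated WT was the lowest group, treated WT lay above treated Atg7KO without overlap, and the Atg7KO to WT difference went from 1.34 (1.15 without Atg7KO replicate 1) to -0.67. The log2 change in Atg7KO with H2O2 was -0.44 ± 0.16 (adjusted p = 0.056) and the change of the difference was -2.01 ± 0.17 (SE). METTL3 had 4.63, 5.53 and 4.63 FPKM in untreated WT, 6.23, 5.88 and 5.35 in untreated Atg7KO, 3.59, 3.35 and 3.68 in treated WT and 1.99, 2.01 and 1.9 in treated Atg7KO. Its lines overlapped at 0h, and at 12h Atg7KO lay below WT, with a change of -1.08 ± 0.14. METTL3 and TOX4 overlap at their ends on opposite strands and could share reads. PABPN1 had a change of -1.32 ± 0.15 and AJUBA, a LIM protein of cell junctions, of -0.78 ± 0.11. LINC00641, a long noncoding RNA, had 4.59, 4.6 and 3.6 FPKM in treated WT and 1.48, 1.21 and 1.11 in treated Atg7KO, against 1.96, 2.12 and 2.67 and 1.35, 2.17 and 1.84 untreated, and a change of -1.42 ± 0.26.

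Changes below 0 were also found for G2E3, DHRS1, EMC9, DNAAF2, PRPF39, PNP, SDR39U1, MRPL52 and RPS29, at log2 values from -1.84 to -0.58. Most members named for this change were picked by the call of the planned test, which is not read as a result. Over all 181 members, 72 had a change above 0 (39.8%), beside 47.8% of all genes. Without Atg7KO replicate 1 of 0h, RPS29 had -1.15 and MRPL52 -0.99. RN7SL2, a copy of the signal recognition particle RNA, had a change of -2.28 ± 0.54, with 161, 198 and 72.7 FPKM in untreated Atg7KO and 73.8, 173 and 79.2 in treated Atg7KO, against 18, 36.4 and 25.2 and 102, 86.4 and 104 in WT. It has near-identical copies elsewhere and lies inside AL627171.2 on the same strand, so its counts are uncertain, as are those of AL627171.2 (2.04 ± 0.45).

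DTD2, HEATR5A and MIPOL1 had changes above 0, that of MIPOL1 running from 0.15 to 0.82 over 21 alternative settings. DTD2, a D-aminoacyl-tRNA deacylase, had 3.42, 3.04 and 3.39 FPKM in untreated WT, 6.59, 4.21 and 5.29 in untreated Atg7KO, 2.94, 3.19 and 3.11 in treated WT and 9.49, 10.8 and 8.79 in treated Atg7KO. The lines were apart at both times and farther at 12h, and the change was 0.95 ± 0.21. HEATR5A, a protein of membrane traffic, had 1.1, 1.01 and 1.11 FPKM in treated WT and 2.62, 3.04 and 2.79 in treated Atg7KO, against 1.76, 1.59 and 1.76 and 2.45, 2.53 and 2.69 untreated, and a change of 0.81 ± 0.13, while MIPOL1 had 0.76 ± 0.13.

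**Figure D2:**
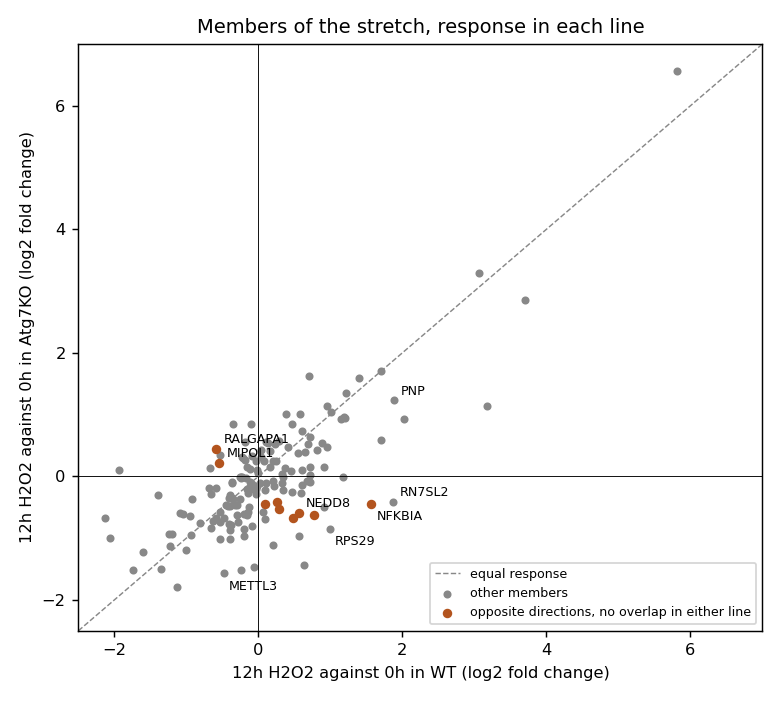
Log2 fold change after 12h of H2O2 in WT (horizontal) against that in Atg7KO (vertical) for 160 members of the stretch, with the dashed line at equal responses and brown points for the 9 members that moved in opposite directions with no overlap in either line. Of the points, 46 are above 0 in both lines, 68 below 0 in both, 29 above 0 in WT alone and 17 in Atg7KO alone. NFKBIA, RPS29 and RN7SL2 lie to the right of 0 on the horizontal axis and below the line.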

How the data were processed

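The 12 libraries were grouped by line and treatment from their labels, 3 per group. The deposited counts are whole numbers of reads per gene made by the authors, and the deposited FPKM values are those counts scaled by the authors, in fixed proportion within a library to count over gene length. The submitters' processing notes name HISAT2 2.0.5 and featureCounts 1.5.0-p3 with GRCh38, and the strand setting is not given in the sources used here. The study's methods call the samples of a group biological replicates, and the labels do not say whether they came from separate cultures, so p-values measure the spread between these samples, which may be technical.

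Members and gene lists were chosen with earlier results of these data known. Counts were analysed with edgeR 4.0.16 in R 4.3.3 (filterByExpr with a minimum count of 10, TMM scaling, robust quasi-likelihood fit, Benjamini-Hochberg adjustment over all genes tested). Each comparison used its own 6 libraries and the interaction all 12. The interaction was planned as a test, but both its differences chose the stretch, so its values are given without p-values or calls. Its calls served only to pick members to name. Calls were made at an adjusted p under 0.01. SE is the log2 fold change divided by the root of the test statistic. Scripts were tested on simulated data. Differences of Atg7KO from WT chose the stretch and are given as descriptions, without calls. Named members are those of 9 role lists, the 5 highest and 5 lowest at 12h among protein-coding members above 1 FPKM, the first and last members and their neighbours, and the 3 highest and 3 lowest called for each H2O2 response and the interaction. SALL2, LRFN5, LRR1, PPP2R3C and the remaining members named for the change between the times were chosen after their values were seen. Some members that this rule names are not reported here, and they stay in the counts and medians. Alternatives were DESeq2 1.42.0, RLE scaling, scaling without chromosome 14, other filters, all 12 libraries, a replicate block, a correction for gene length (lowess span 0.3), limma 3.58.1 on log2 of FPKM plus 1 or plus 0.1, other thresholds, protein-coding members alone, each library left out and, for the share of reads, the summed FPKM and the member with the most reads left out.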

Additional observations from a re-analysis of the deposited data

Results flagged for a closer look

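In 9 of 160 members, all treated libraries lay on 1 side of the untreated ones in WT and on the opposite side in Atg7KO. This was a smaller share than the 7.54% of all genes that did so. Whether the responses differed was not tested, since both Atg7KO to WT differences behind them chose the stretch. Values are the log2 difference of Atg7KO from WT at 12h minus that at 0h, with all libraries or without untreated Atg7KO replicate 1. This change moved with gene length on the other chromosomes, and the part of length in these 9 members was not tested. Below 0 were APEX1 (-0.67, or -0.37), MRPL52 (-1.39, or -0.99), PSMB5 (-0.82, or -0.47), NEDD8 (-1.14, or -0.69), PPP2R3C (-0.54, or -0.32), NFKBIA (-2.01, or -1.81) and RPL36AL (-1.16, or -0.70). Above 0 were RALGAPA1 (1.04, or 0.74) and MIPOL1 (0.76, or 0.77). The 9 were picked by this separation with all libraries, so their direction without that replicate was fixed by the choice. Without it 8 of them were nearer to 0, MIPOL1 being the exception. Their changes with H2O2 in Atg7KO alone, with and without that replicate, are given above. Over 21 alternative settings, however, MIPOL1 ran from 0.15 to 0.82, while MRPL52 ran from -1.56 to -0.99 and NFKBIA from -2.10 to -1.72. With groups of 3 libraries, no test for single outlying values was made.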

How the results depend on the processing

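Median differences of the stretch stayed above 0 under each alternative run. These differences chose the stretch in the same counts, so this was almost fixed in advance and is a description. The same holds for the medians with 1 library left out. At 0h the median of 0.74 was 0.48 with limma on FPKM plus 1, 0.67 with FPKM plus 0.1 and 0.80 for the members after the T cell receptor genes, a choice made after seeing the data. At 12h the median of 0.57 was 0.49 without a filter, 0.62 with the length correction, 0.34 with limma on FPKM plus 1, 0.61 for protein-coding members and 0.62 after the T cell receptor genes. The median of the rest of chromosome 14 was 0.0089 at 0h and -0.028 at 12h without a filter, 0.13 and 0.028 with the length correction, and 0.067 at 12h with limma on FPKM plus 1. The thresholds of the study left 17 of 91 calls for H2O2 in WT and 21 of 47 in Atg7KO. The cause of these changes was not tested.

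Leaving out 1 library gave medians of 0.72 to 0.75 (0h) and 0.56 to 0.59 (12h) for the stretch, and 0.027 to 0.052 and 0.11 to 0.13 for the rest of chromosome 14. Calls were then 87 to 94 for H2O2 in WT and 22 to 109 in Atg7KO, and the difference in the share of reads was 0.0781 to 0.0820 points in WT. In Atg7KO, where leaving out libraries for this share was chosen after seeing the data, it was -0.0321 to 0.0119, and only leaving out untreated replicate 1 turned the sign. The replicate number, a label shared by the groups, did not pair the samples: deviations of same-numbered libraries correlated at -0.067 to 0.091. With it as a block, 92 and 37 members were called for H2O2 in WT and Atg7KO. With totals of 15602183 to 17659496 reads, members at low counts were not tested, and their differences were not detectable at this depth.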
